A study of Mus musculus with 14 samples.

Results

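The 44 collagen chain genes of the mouse were examined in 14 RNA libraries of lung tumor nodules. They are the rows of the deposited count table whose symbol has the form Col, a collagen type number, a and a chain number, and they make up 44 of 55291 symbols. They fall into 11 fibrillar chains, 9 basement membrane chains, 6 collagen VI chains, 9 fibril-associated chains, 3 short-chain network chains, 4 transmembrane collagens and 2 others. The filter on low counts left 38 of the 44 in the tests, among 17933 genes. The 6 that did not pass were Col9a1, Col9a2, Col9a3, Col19a1 and Col22a1 of the fibril-associated class and Col26a1 of the others.

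All nodules came from C57BL/6 mice of the genotype HER2 Exon20YVMA, an insertion of YVMA in exon 20 of the receptor tyrosine kinase HER2, and total RNA was taken from snap-frozen tissue. The groups were a long-term combination of mobocertinib and T-DM1 (n = 3), nodules with acquired resistance to mobocertinib given alone (n = 3), T-DM1 (n = 3), mobocertinib, also named TAK-788 (n = 3), and vehicle (n = 2). Mobocertinib inhibits the kinase of exon 20 mutants of EGFR and HER2, and T-DM1 is a HER2 antibody joined to a microtubule toxin. Doses, treatment times, ages and the promoter that drives the HER2 allele are not stated in the labels. Epithelial lung markers were found in every library: 6 genes of lung tumor epithelium, such as Epcam and Nkx2-1, summed to 643 to 4277 TPM (transcript abundance adjusted for transcript length and scaled to a fixed total per library).

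Collagens are built from alpha chains that wind into triple helices in the endoplasmic reticulum, are cut and cross-linked outside the cell, and form the scaffold of connective tissue. In the lung, fibroblasts and smooth muscle cells make most of the fibrillar collagens I, III and V, which bear tension, while collagen IV forms the sheet under epithelium and endothelium, and collagens XV and XVIII join that sheet to the tissue around it. Collagen messenger RNAs are long and rich in repeats of glycine codons, so their counts depend on how well a library holds long messenger RNAs.

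The vehicle libraries held far fewer long messenger RNAs than the other 12. Genes with a messenger RNA over 5 kb took 11.6% to 18.9% of counts outside vehicle, against 5.49% and 4.06% in vehicle, and those under 1 kb took 8.15% to 14.3% outside vehicle, against 30.8% and 36.5% in vehicle. Of the 44 collagens, 33 are longer than 5 kb, with a median of 5989 nucleotides over the 44, against 3069 over all tested protein-coding genes. Library totals were 19.3 M to 31.3 M counts. Each comparison with vehicle was therefore fitted on counts scaled by TMM factors. It was fitted again with an offset for length and GC content in each library (length-corrected). Fold changes below are from the first fit unless another is named. Of 34 collagen values called in the first fit, 8 were also called in the second. All 4 of these comparisons share the same pair of vehicle libraries, and their part in the differences cannot be told apart from that of treatment.

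Collagens took little of each library. They made up 0.272%, 0.170% and 0.215% of counts in the combination, 0.632%, 0.193% and 0.143% in resistant nodules, 0.282%, 0.319% and 0.247% under T-DM1, 0.141%, 0.182% and 0.218% under mobocertinib, and 0.0718% and 0.0411% in vehicle. Both vehicle libraries were below each of the other 12, and the first resistant library was the highest. The Wilson 95% interval was 0.629% to 0.636% in that library and 0.0403% to 0.0419% in the lower vehicle library; these intervals cover counting error only. Because these were bulk samples, fewer cells that make a collagen and less of its RNA per cell cannot be told apart.

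By level in TPM, averaged over the 5 group means, Col3a1, the chain of collagen III, came first with 81.8 TPM. Col4a1 followed with 76.8 TPM and Col15a1 with 57.5 TPM, then Col4a2, Col1a2 and Col1a1 with 56.2, 52.2 and 43.0 TPM. These 6 overlapped widely between libraries: Col3a1 ran from 8.98 to 420 TPM and Col4a1 from 6.78 to 173 TPM, so their order was not separated by the spread. Col18a1 (29.9 TPM), Col6a1 (24 TPM) and Col6a2 (15.2 TPM) completed the 9 collagens above 10 TPM. Another 19 lay below 1 TPM, among them the chains of cartilage, with Col2a1 at most 0.33 TPM, Col9a1 at most 0.26 TPM and Col11a1 at most 0.25 TPM in any library. TPM is shared out within a library, and from log2(TPM + 1) the median of all tested genes was 1.11 to 1.27 log2 units higher in the other groups than in vehicle, so TPM levels are used here for order and for shares rather than for changes against vehicle.

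**Figure D1:**
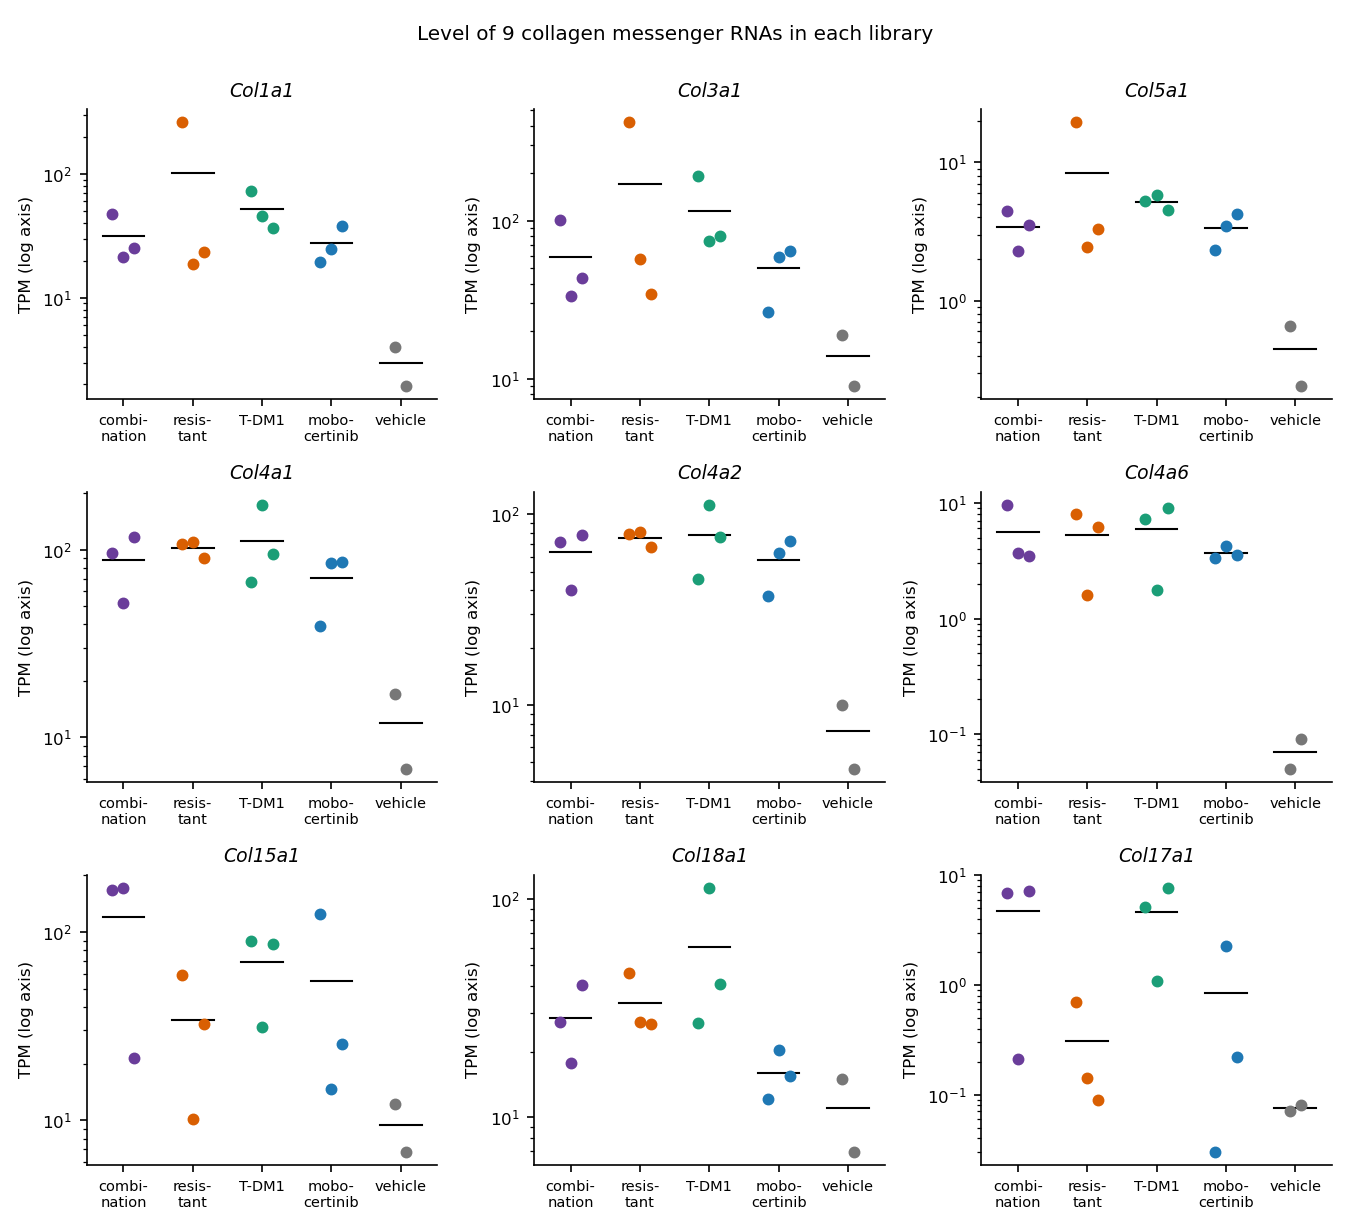
Level of 9 collagen messenger RNAs in TPM on a log axis; each point is a library, and the bar is the mean of its group (n = 3, vehicle n = 2). Col4a6 was 1.61 to 9.56 TPM outside vehicle and 0.05 and 0.09 TPM in vehicle, while Col1a1 and Col3a1 stood highest in 1 resistant library and Col15a1 and Col17a1 varied widely within groups.

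The fibrillar and basement membrane chains were the highest 2 classes by summed TPM in each of the 14 libraries. Basement membrane chains summed to 405, 299 and 282 TPM in the combination, 320, 255 and 239 TPM in resistant nodules, 255, 445 and 338 TPM under T-DM1, 229, 208 and 228 TPM under mobocertinib, and 59.7 and 26.8 TPM in vehicle. Fibrillar chains summed to 233, 96.2 and 114 TPM in the combination, 1040, 115 and 95.6 TPM in resistant nodules, 368, 197 and 183 TPM under T-DM1, 78.8, 129 and 176 TPM under mobocertinib, and 32.7 and 17.0 TPM in vehicle. The mix differed less between groups than the sums did. Fibrillar chains held 21.4% to 32.3% of collagen TPM in 12 of the 14 libraries, both vehicle libraries included, against 64.2% in the first resistant library and 51.7% in the first T-DM1 library.

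**Figure D2:**
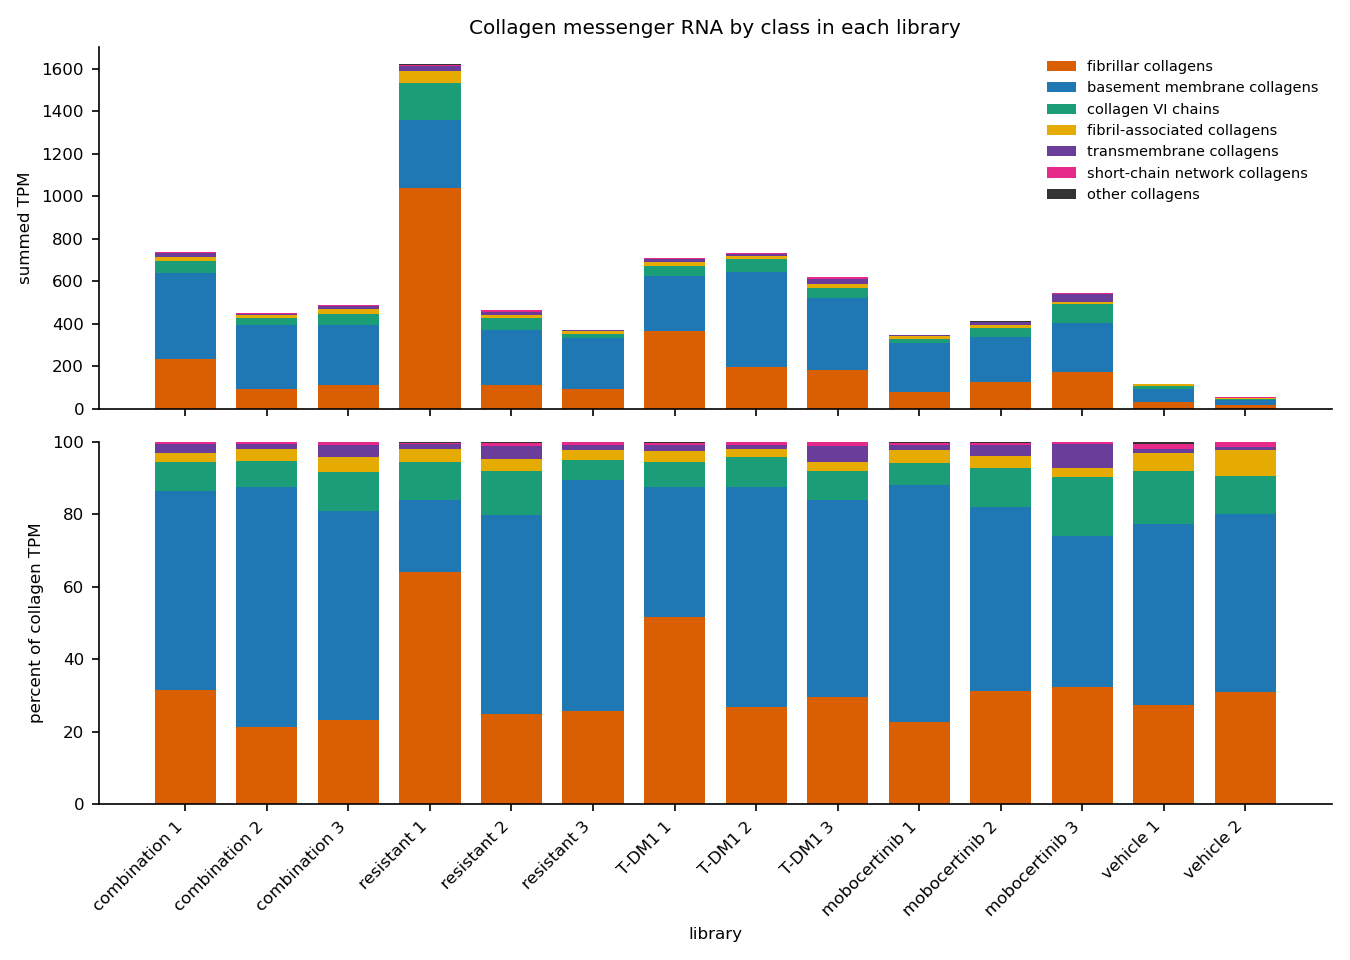
Summed TPM of the 7 collagen classes in each library (upper panel) and their percent of collagen TPM (lower panel); each stacked bar is 1 library. The first resistant library reaches 1620 TPM, mostly fibrillar chains, and the vehicle libraries 119 and 54.7 TPM. Vehicle shares of fibrillar, basement membrane and collagen VI chains lie within the range of the other libraries. Their fibril-associated and short-chain network shares lie above that range, and their transmembrane shares just below it.

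Against vehicle, on TMM-scaled counts, few collagens passed the test of edgeR's quasi-likelihood fit at a Benjamini-Hochberg adjusted p below 0.05. In the combination 5 of 38 were higher and 0 lower, where 17.6% of all tested genes were higher and 17.4% lower (35% in either direction). In resistant nodules 14 were higher and 0 lower, against 22% and 19% of all genes (41% in either direction). Under T-DM1 8 were higher and 0 lower, against 16.7% and 14.9% of all genes (31.7%). Under mobocertinib 6 were higher and 1 was lower, against 16.8% and 16.1% of all genes (32.9%).

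Calls here and below are those of edgeR with TMM factors unless another fit is named. Those counts correspond to 13.2%, 36.8%, 21.1% and 15.8% of the tested collagens called higher in the combination, resistant, T-DM1 and mobocertinib groups. The share among all messenger RNAs over 5 kb was larger in each comparison, with 43.5%, 56.2%, 40.6% and 42.1% of 3080 genes, of which 2.73%, 2.27%, 2.18% and 2.76% were lower. Of the 32 tested collagens over 5 kb, 4, 10, 6 and 4 were higher. The median log2 fold change of the 38 collagens was 1.25, 1.68, 1.72 and 1.20 in the same order, beside 1.08, 1.42, 1.08 and 1.06 for all messenger RNAs over 5 kb and 0.08, 0.18, 0.18 and 0.09 for all tested genes. With genes at 0 counts in a group set to their bound against 3 counts, the collagen medians were 1.20, 1.61, 1.55 and 0.78.

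Without vehicle 2, which had the fewest genes with a count, the number called dropped to 1 in the combination, 2 in resistant nodules, 2 under T-DM1 and 2 under mobocertinib, and without vehicle 1 it was 6, 12, 8 and 6. Libraries of the 2 groups did not overlap for 21 collagens that were higher and 1 that was lower in the combination, where 33.3% and 29.9% of all genes did so (63.1% in either direction). These numbers were 14 and 1 in resistant nodules (28.8% and 25.6% of all genes, 54.4% together), 23 and 2 under T-DM1 (32.2% and 26%, 58.2% together), and 17 and 2 under mobocertinib (31.1% and 28.3%, 59.4% together). All are out of 38 tested collagens. Of 3080 messenger RNAs over 5 kb, 2006, 1976, 1972 and 1871 did not overlap and were higher in the same group order. Lower ones numbered 250, 121, 176 and 230.

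**Figure D3:**
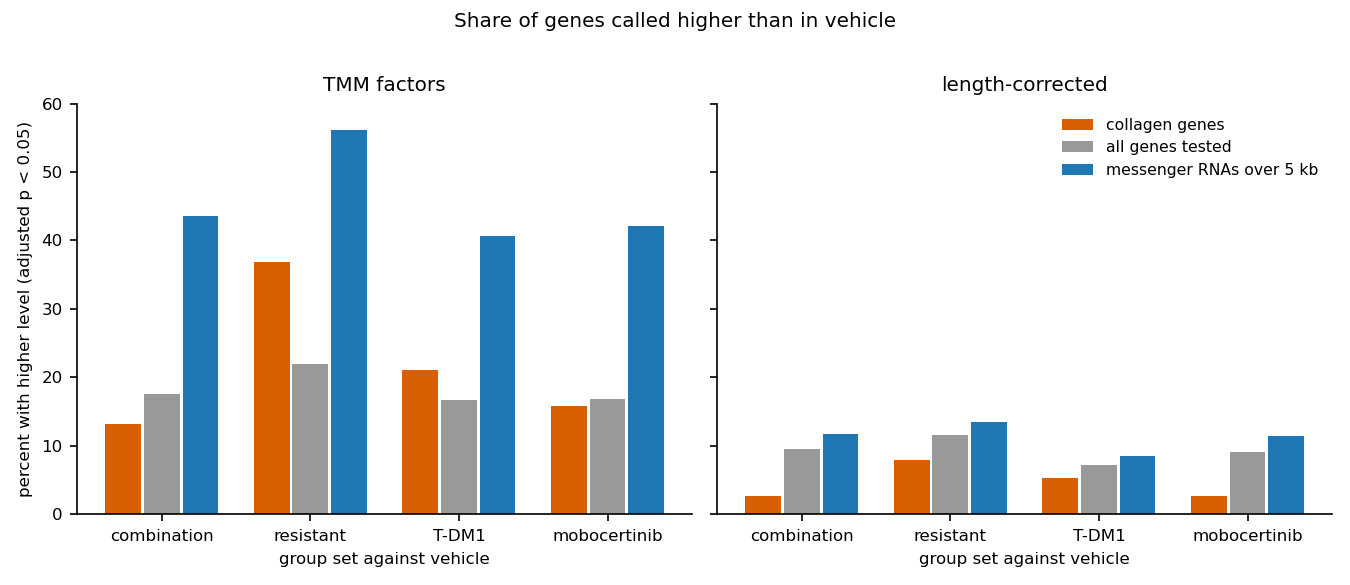
Percent of genes called higher than in vehicle (adjusted p below 0.05) among collagens, all tested genes and messenger RNAs over 5 kb, for TMM factors (left) and with length correction (right). On the left the collagens lie below the long messenger RNAs in all 4 groups, and on the right they lie below both other kinds of gene.

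Col4a6, Col4a5, Col4a2 and Col8a2 were called higher in all 4 comparisons with vehicle, and the first 3 of them encode collagen IV. The chains of this sheet-forming collagen are encoded as 3 head-to-head pairs, Col4a1 with Col4a2 on chromosome 8, Col4a3 with Col4a4 on chromosome 1 and Col4a5 with Col4a6 on chromosome X. Col4a6, whose chain joins Col4a5 in the basement membranes of smooth muscle and some epithelia, lies on the minus strand at chrX:141165403-141474076 (mm10). Its CPM (counts scaled to a fixed library size with the TMM factors) were 41.2, 18.9 and 16.8 in the combination, 33.8, 7.10 and 27.8 in resistant nodules, 36.5, 8.86 and 40.8 under T-DM1, 19.8, 20.1 and 15.6 under mobocertinib, and 0.66 and 1.78 in vehicle. All 12 other libraries stood above both vehicle libraries, which held 11 and 24 counts of the gene, while the other 12 held 171 to 1039.

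Col4a6 rose against vehicle by a log2 fold change of 4.41 ± 0.87 (SE) in the combination (edgeR adjusted p = 0.00245). It was higher by 4.24 ± 0.86 in resistant nodules (adjusted p = 0.002181), by 4.57 ± 0.88 under T-DM1 (adjusted p = 0.002459) and by 3.93 ± 0.85 under mobocertinib (adjusted p = 0.00447), or 15.3-fold to 23.7-fold over the 4 groups. Among the 38 tested collagens it had the smallest adjusted p in each of these comparisons. With length correction it stayed higher, by 3.11, 2.77, 3.27 and 2.73 (adjusted p = 0.01644, 0.02146, 0.01442 and 0.02812), and it stayed called without either vehicle library. In limma-voom the combination alone kept the call (adjusted p = 0.04629), with adjusted p = 0.05636 in resistant nodules, 0.05222 under T-DM1 and 0.06805 under mobocertinib.

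Col4a5, the partner of Col4a6 in its heterotrimer and also a chain of the kidney and lung basement membrane, lies on the plus strand at chrX:141475385-141689234. It had 68.0, 37.1 and 43.8 CPM in the combination, 40.1, 27.3 and 52.2 in resistant nodules, 65.1, 35.2 and 76.1 under T-DM1, 36.4, 60.9 and 45.8 under mobocertinib, and 20.2 and 7.80 in vehicle. Its libraries did not overlap between vehicle and any other group. The log2 fold change was 1.82 ± 0.48 in the combination (adjusted p = 0.0111), 1.51 ± 0.47 in resistant nodules (adjusted p = 0.02185), 2.07 ± 0.48 under T-DM1 (adjusted p = 0.007) and 1.77 ± 0.48 under mobocertinib (adjusted p = 0.01368). None of these 4 calls was kept with length correction.

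The messenger RNAs have 6536 nucleotides for Col4a5 and 6648 for Col4a6. The ratio of Col4a5 to Col4a6 in TPM was 1.41 to 4.37 in the 12 other libraries, against 54.8 and 8.11 in vehicle. In CPM it was 1.18 to 3.98, against 30.5 and 4.38 in vehicle, so vehicle 2 lay close to the other libraries. The vehicle ratios rest on 11 and 24 counts of Col4a6, at 0.05 and 0.09 TPM. This pair was chosen for a ratio after its values were seen, so no test is given. The starts of the 2 genes are separated by 1308 bases, and the bases just before each are shown for this shared stretch, with matches to CCAAT (the box bound by NF-Y), GGGCGG (the GC box bound by Sp factors) and TATAAA (the TATA box), searched on both strands, in capitals. The sequences are from RefSeq on the GRCm38.p6 build.
Col4a6, chrX:141474077-141474326, minus strand: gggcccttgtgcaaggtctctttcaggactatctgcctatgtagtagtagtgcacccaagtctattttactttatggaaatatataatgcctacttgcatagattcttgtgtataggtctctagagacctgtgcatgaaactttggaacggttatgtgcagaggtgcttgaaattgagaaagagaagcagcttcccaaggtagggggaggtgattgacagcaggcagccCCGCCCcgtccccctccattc
Col4a5, chrX:141475169-141475384, plus strand: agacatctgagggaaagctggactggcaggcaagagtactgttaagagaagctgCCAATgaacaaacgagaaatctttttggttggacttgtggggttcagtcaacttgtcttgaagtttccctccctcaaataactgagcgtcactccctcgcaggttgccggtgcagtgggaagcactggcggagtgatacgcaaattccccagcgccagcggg

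The Col4a6 window of 250 bases holds 1 GC box, read on its other strand, and the Col4a5 stretch of 216 bases 1 CCAAT box. The full 250 bases before the RefSeq start of Col4a5, 34 of them exon bases, hold 1 CCAAT and 1 GGGCGG. In the 250 bases before all 32851 RefSeq starts in the table, 33.8% hold CCAAT, 32.7% hold GGGCGG and 12.4% hold TATAAA. Among 38 such windows of 35 collagen genes, these shares were 34.2%, 57.9% and 13.2%. A match is a run of letters and not a measured binding site.

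Col4a1 and Col4a2, the chains of the collagen IV found in nearly all basement membranes, start 21 bases apart on opposite strands of chromosome 8. Col4a2 had 298, 194 and 349 CPM in the combination, 315, 374 and 291 in resistant nodules, 227, 545 and 334 under T-DM1, 206, 287 and 304 under mobocertinib, and 129 and 86.1 in vehicle. The vehicle libraries were below all others. Col4a2 rose by 1.38 ± 0.39 in the combination (adjusted p = 0.01514), 1.60 ± 0.39 in resistant nodules (adjusted p = 0.005975), 1.78 ± 0.39 under T-DM1 (adjusted p = 0.005178) and 1.31 ± 0.38 under mobocertinib (adjusted p = 0.02041). With length correction these values were 0.11, 0.40, 0.53 and 0.06, and none was called (edgeR adjusted p = 0.8511, 0.453, 0.3384 and 0.9275).

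Col4a1 had 408, 256 and 540 CPM in the combination, 443, 522 and 401 in resistant nodules, 343, 860 and 426 under T-DM1, 223.6, 398 and 372 under mobocertinib, and 223.6 and 138 in vehicle. Mobocertinib 1 fell just below vehicle 1, and the other groups did not overlap vehicle. It was called in resistant nodules (1.33 ± 0.45, adjusted p = 0.03022) and under T-DM1 (1.59 ± 0.45, adjusted p = 0.01842), while the combination gave 1.15 ± 0.44 (adjusted p = 0.05987) and mobocertinib 0.87 ± 0.44 (adjusted p = 0.1408). With length correction its change was -0.06 in the combination, 0.12 in resistant nodules, 0.38 under T-DM1 and -0.32 under mobocertinib, and none was called (adjusted p = 0.9267, 0.8503, 0.5351 and 0.5881).

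Col4a1 and Col4a2 moved together from library to library. Their TPM ratio was 1.05 to 1.70, a 1.62-fold span over 14 libraries, while Col4a1 itself spanned 25.4-fold and Col4a2 24.2-fold. In CPM the ratio spanned 1.61-fold and the genes only 6.23-fold and 6.33-fold. Col1a1 and Col1a2, the chains of collagen I encoded on different chromosomes, had a TPM ratio of 0.42 to 0.92, a 2.18-fold span, beside 136-fold and 64.7-fold for the genes. In CPM these spans were 2.17-fold, 29.0-fold and 16.1-fold. Col4a3 and Col4a4, which join Col4a5 in the basement membrane of alveolus and glomerulus, had a ratio of 0.49 to 2.75, the upper end in vehicle 2, where they were at 0.22 and 0.08 TPM. These ratios describe libraries that also differ in depth of long messenger RNA.

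**Figure D4:**
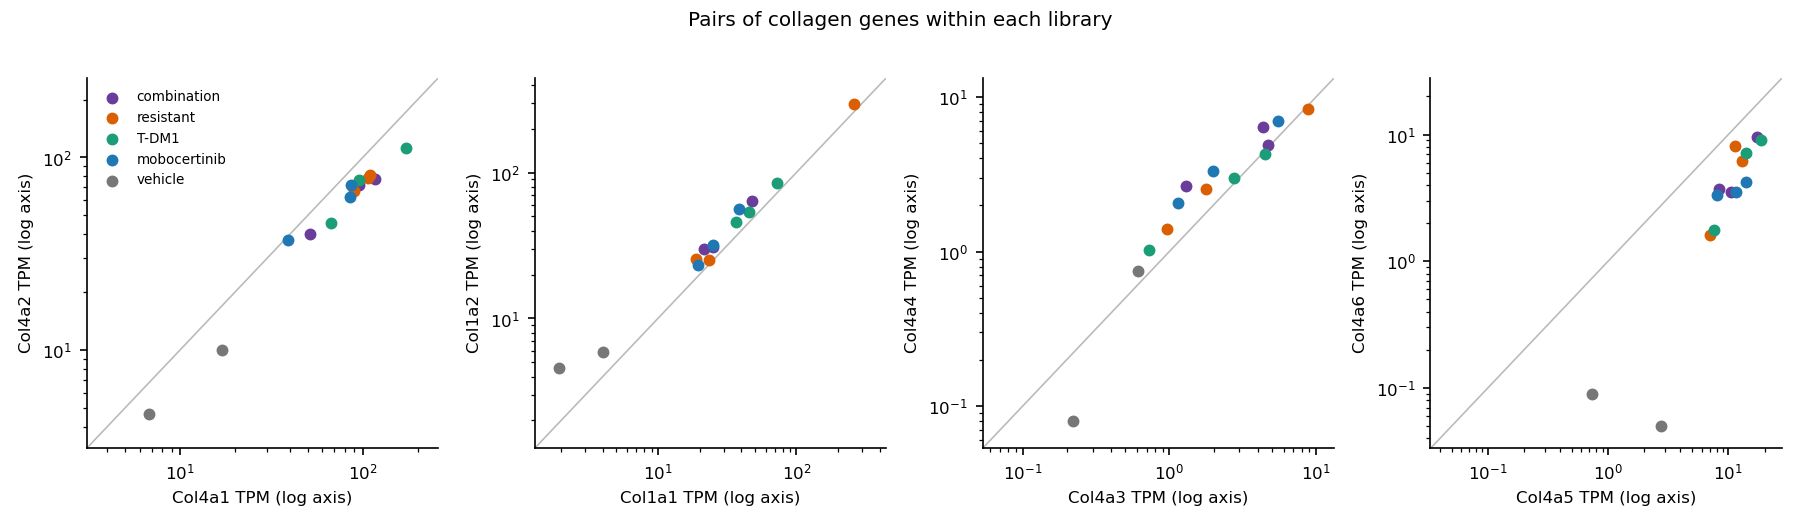
TPM of 4 pairs of collagen genes, on log axes, with 1 point per library colored by group and the line of equal TPM in gray. Col4a1 with Col4a2 and Col1a1 with Col1a2 lie near the line in all groups. For Col4a5 with Col4a6 the vehicle points lie away from the others, at ratios of 54.8 and 8.11 from 0.05 and 0.09 TPM of Col4a6.

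The stretch between Col4a4 and Col4a3 has 71 bases that lie before both starts, and it is shown because both genes read away from it. On the minus strand, from the Col4a3 side to the Col4a4 side, it holds none of the 3 motifs, which says only that these letters are not in it.
Col4a4-Col4a3, chr1:82586850-82586920, minus strand: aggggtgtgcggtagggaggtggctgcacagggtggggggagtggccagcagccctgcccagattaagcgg

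Col4a3 had 23.0, 7.88 and 26.3 CPM in the combination, 9.75, 56.2 and 5.40 in resistant nodules, 4.79, 17.3 and 26.2 under T-DM1, 8.57, 12.4 and 31.3 under mobocertinib, and 5.70 and 4.31 in vehicle. The combination and mobocertinib libraries lay above vehicle, and the resistant and T-DM1 libraries overlapped it. Its log2 fold changes of 1.93 ± 1.01, 2.25 ± 1.02, 1.68 ± 1.0 and 1.80 ± 1.0 did not pass (adjusted p = 0.1541, 0.09444, 0.2088 and 0.1827 in the combination, resistant, T-DM1 and mobocertinib groups). A neighbor transcript, C430014B12Rik, shares 5.6% of its exon bases, which makes the Col4a3 count less certain because no source used here says whether strand was used in counting. Col4a4 gave 2.38 ± 0.88 in the combination (adjusted p = 0.05237) and passed in none of the 4 in edgeR, while DESeq2 called it in the combination, in resistant nodules and under mobocertinib.

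Col15a1, the core of a proteoglycan that ties basement membranes to nearby fibrils, varied more within groups than between them. It had 167, 171 and 21.3 TPM in the combination, 59.2, 10.1 and 32.6 in resistant nodules, 89.5, 31.4 and 86.6 under T-DM1, 125, 14.6 and 25.3 under mobocertinib, and 12.2 and 6.80 in vehicle. The highest libraries of the combination and of mobocertinib exceeded their lowest by a wide margin. On TMM-scaled counts its changes were 2.82 ± 1.11, 0.84 ± 1.01, 2.11 ± 1.07 and 1.78 ± 1.05, with adjusted p = 0.06479, 0.5223, 0.1458 and 0.2081 in the same group order, and with length correction it was -0.25 in resistant nodules.

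Col18a1, whose chain carries the endostatin fragment at its end, had 89.0, 65.4 and 141 CPM in the combination, 146, 92.9 and 90.7 in resistant nodules, 105, 431 and 139 under T-DM1, 53.0, 73.0 and 48.6 under mobocertinib, and 153 and 104 in vehicle. T-DM1 2 was far above all others, and the 3 mobocertinib libraries and combination 2 were the lowest 4. No comparison with vehicle passed, with log2 changes of -0.38 ± 0.52 (adjusted p = 0.5867), -0.23 ± 0.52 (adjusted p = 0.7426), 0.81 ± 0.53 (adjusted p = 0.2567) and -1.14 ± 0.51 (adjusted p = 0.1033). With length correction the mobocertinib and combination values were -2.26 and -1.53 and were called lower (adjusted p = 0.008478 and 0.04121). From log2(TPM + 1), where the median of all genes moved by over 1 unit, the signs of the combination, resistant and mobocertinib values were positive. T-DM1 2 also had the highest sum of the 8 alveolar type 2 markers, 105498 TPM, against 11239 to 88921 TPM in the other 13 libraries. The next highest sums were 88921 TPM in vehicle 2 and 82964 TPM in vehicle 1, with Col18a1 at 104 and 153 CPM. Mobocertinib 3, with 63448 TPM of these markers, had the lowest Col18a1 level, 48.6 CPM. The part of these cells in the Col18a1 value was not tested. Col7a1, which anchors the skin basement membrane, was between 0.49 and 4.96 TPM and passed in none of the 4 comparisons with TMM factors.

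Among the 11 fibrillar chains, edgeR called 1 higher in the combination, 5 in resistant nodules, 2 under T-DM1 and 0 under mobocertinib, where 0 also had an unadjusted p below 0.05. The order of these counts depended on the fit. Fitting the compared groups only gave 4, 0, 4 and 3 calls in the same group order, DESeq2 gave 1, 5, 5 and 0, and limma-voom gave 0, 1, 1 and 0. From log2(TPM + 1) they were 4, 7, 6 and 4. Without vehicle 2 there were 0 fibrillar calls in each of the 4 comparisons. Col1a1, the main chain of collagen I, on chromosome 11 (94936224 to 94953042), had 184, 94.9 and 104 CPM in the combination, 973, 80.9 and 93.5 in resistant nodules, 336, 206 and 151 under T-DM1, 102, 105 and 150 under mobocertinib, and 47.7 and 33.6 in vehicle. No group overlapped vehicle, and resistant 1 stood far above every other library. Its log2 change was 3.23 ± 0.96 in resistant nodules (adjusted p = 0.0173), while the combination gave 1.65 ± 0.88 (adjusted p = 0.1621), T-DM1 2.51 ± 0.92 (adjusted p = 0.05426) and mobocertinib 1.55 ± 0.88 (adjusted p = 0.1901).

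Col1a2, the second chain of collagen I, followed it, with 220, 119 and 112 CPM in the combination, 988, 97.5 and 91.0 in resistant nodules, 351, 217 and 167 under T-DM1, 107, 122 and 195 under mobocertinib, and 61.4 and 71.0 in vehicle. All 12 other libraries exceeded both vehicle libraries. The change passed in resistant nodules (2.57 ± 0.91, adjusted p = 0.03801) and not in the combination (1.18 ± 0.85, adjusted p = 0.2944), under T-DM1 (1.89 ± 0.88, adjusted p = 0.1149) or under mobocertinib (1.10 ± 0.85, adjusted p = 0.3337).

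Col3a1, which codes for the chain of the fine fibrils of lung and vessel wall, was not called against vehicle by edgeR. It had 274, 101 and 135 CPM in the combination, 1119, 145 and 108 in resistant nodules, 532, 249 and 229 under T-DM1, 84.4, 146 and 174 under mobocertinib, and 129 and 134 in vehicle. Vehicle lay inside the range of the combination, resistant and mobocertinib groups and below all T-DM1 libraries. None of the changes passed: 0.37 ± 0.82 in the combination (adjusted p = 0.751), 1.80 ± 0.87 in resistant nodules (adjusted p = 0.1141), 1.36 ± 0.85 under T-DM1 (adjusted p = 0.2367) and 0.04 ± 0.82 under mobocertinib (adjusted p = 0.9782). It was called in resistant nodules without resistant 3, and in resistant nodules and under T-DM1 by limma-trend on both TPM scales, where the median of all genes also moved up.

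Col5a1, a chain of the collagen that starts fibrils, had 23.7, 14.6 and 20.8 CPM in the combination, 98.4, 14.9 and 18.2 in resistant nodules, 31.4, 37.1 and 24.9 under T-DM1, 16.8, 13.2 and 22.6 under mobocertinib, and 8.46 and 5.65 in vehicle. The lowest of the other 12 libraries was above both vehicle libraries. It was higher in resistant nodules (2.63 ± 0.71, adjusted p = 0.01046) and under T-DM1 (2.14 ± 0.69, adjusted p = 0.0324), while the combination gave 1.48 ± 0.67 (adjusted p = 0.1045) and mobocertinib 1.31 ± 0.67 (adjusted p = 0.1454). Col5a2, its partner chain, was called in resistant nodules (1.74 ± 0.57, adjusted p = 0.02692), as was Col27a1, a fibrillar chain of cartilage and other tissues (1.62 ± 0.59, adjusted p = 0.04182).

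Col2a1, the chain of cartilage collagen II, was called in the combination (adjusted p = 0.04737) and under T-DM1 (adjusted p = 0.04411) from very few counts. It had 26, 4 and 4 counts in the combination libraries and 21, 6 and 13 in the T-DM1 libraries, against 0 in both vehicle libraries. Most counts of the combination came from its first library, and the call was lost without it (adjusted p = 0.1385), without vehicle 1 (0.138) and without vehicle 2 (0.1481). Under T-DM1 it was lost without T-DM1 1 (adjusted p = 0.08856), T-DM1 3 (0.07659), vehicle 1 (0.1283) and vehicle 2 (0.1488). Set against 3 counts over the vehicle group, its level over all libraries of a group was at least 4.42-fold higher in the combination and at least 4.94-fold higher under T-DM1. Of 9 cartilage markers, 7 of them in the TPM table, Acan, Matn1 and Matn3 were at 0 TPM in both vehicle libraries. Acan and Matn1 were also at 0 TPM in all resistant libraries, and Matn3 in all mobocertinib libraries. The list summed to 1.5 to 27.3 TPM elsewhere and 4.2 and 1.59 TPM in vehicle. Of the 5 that were tested, 0 were called higher in any comparison with vehicle. Sox9 was called lower in the combination and Hapln1 under mobocertinib, beside 17.4% and 16.1% of all genes. The part of cartilage in these values was not tested.

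Resistant 1 stood apart in the fibrillar chains. It was the highest of the 12 libraries outside vehicle for 9 of 11 fibrillar chains and 19 of 38 tested collagens, where it was the highest for 11.5% of all tested genes. In TPM it had 262 of Col1a1, 297 of Col1a2, 420 of Col3a1, 19.4 of Col5a1 and 32.2 of Col14a1, and the other 2 resistant libraries had 18.8 and 23.3 TPM of Col1a1 and 57.2 and 34.6 TPM of Col3a1. Without it, 9 collagens were called higher in resistant nodules in place of 14, with 2 fibrillar chains, Col5a1 and Col1a1, in place of 5. The median over all tested collagens was then 0.60, against 1.68 with it.

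Markers of smooth muscle cells and pericytes were also highest in that library. The 12 markers, such as Acta2 and Myh11, summed to 1465 TPM in resistant 1, 292 and 291 TPM in the other resistant libraries, 195 to 340 TPM in the combination, T-DM1 and mobocertinib libraries, and 113 and 179 TPM in vehicle. Resistant 1 was the highest of 12 libraries for 7 of these 12 markers and for 12 of 18 fibroblast markers, which summed to 2257 TPM there and to 696 to 3521 TPM in the other libraries outside vehicle. In resistant nodules against vehicle, 7 of 12 smooth muscle and pericyte markers were called higher, beside 22% of all genes and 56.2% of messenger RNAs over 5 kb. For fibroblast markers it was 4 of 18, near the share of all genes. Of the 12, Higd1b and Cox4i2 were called lower, beside 19% of all genes. Notch3 and Myh11 were also called higher, and Higd1b and Cox4i2 lower, in the combination, T-DM1 and mobocertinib groups. There 17.6%, 16.7% and 16.8% of all genes were higher and 17.4%, 14.9% and 16.1% lower. The part of such cells in the collagen values was not tested.

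Collagen VI chains, which form beaded filaments around cells, gave 1 call in the 4 comparisons, Col6a2 in resistant nodules (2.40 ± 0.80, adjusted p = 0.02934), where its libraries held 168, 45.9 and 15.7 CPM, against 16.7 and 12.3 in vehicle. The lowest of them overlapped vehicle. The call was lost without resistant 1 (1.11, adjusted p = 0.1313), without vehicle 1 (2.66, adjusted p = 0.08663) and without vehicle 2 (2.32, adjusted p = 0.1524), and with length correction (1.45, adjusted p = 0.1271). Col6a3, a long chain of the filament, had 28.9, 17.3 and 27.9 CPM in the combination, 65.7, 36.9 and 22.5 in resistant nodules, 25.2, 36.7 and 26.6 under T-DM1, 13.4, 18.3 and 21.8 under mobocertinib, and 22.7 and 17.5 in vehicle. T-DM1 was the only group whose libraries all lay above vehicle. Its changes of 0.29 ± 0.40, 1.05 ± 0.41, 0.55 ± 0.40 and -0.17 ± 0.40 did not pass (adjusted p = 0.5915, 0.05606, 0.3094 and 0.761). With length correction it was called lower in the combination (-1.20, adjusted p = 0.01988) and under mobocertinib (-1.68, adjusted p = 0.004798). Col6a1 was 3.45 to 76.7 TPM, and Col6a4, Col6a5 and Col6a6, alternatives to Col6a3, stayed at or below 1.73 TPM.

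Of the 9 fibril-associated chains, which sit on the surface of fibrils, 4 were tested and none was called in any of the 4 comparisons with TMM factors. At an unadjusted p below 0.05, Col12a1 was among them in the combination, Col14a1 and Col16a1 in resistant nodules and Col20a1 under T-DM1, and none under mobocertinib, where 45.3%, 50.6%, 44% and 44.4% of all genes did so in the 4 comparisons. Col14a1 had 12.1, 10.6 and 11.6 CPM in the combination, 73.7, 19.4 and 7.41 in resistant nodules, 27.5, 6.81 and 9.55 under T-DM1, 5.93, 5.50 and 15.2 under mobocertinib, and 12 and 1.78 in vehicle, so that the vehicle libraries spanned much of the range. DESeq2 called Col12a1 in the combination, Col14a1 and Col16a1 in resistant nodules and Col20a1 under T-DM1, and limma-voom called 0 of these 4 chains in each comparison. By mean CPM, Col20a1 was lower under T-DM1 than in vehicle (1.03 against 3.62). Col12a1, Col14a1 and Col16a1 were higher than in vehicle in the groups named.

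Col8a2 and Col8a1 code for the chains of the short-chain network collagen VIII of vessel walls and corneal endothelium, and their changes differed in sign in 3 of the 4 comparisons. Col8a2 had 4.26, 2.80 and 1.25 CPM in the combination, 10.9, 6.06 and 3.91 in resistant nodules, 5.90, 3.78 and 9.15 under T-DM1, 3.29, 3.62 and 3.87 under mobocertinib, and 0.54 and 0.82 in vehicle. All 12 were above vehicle. It rose by 2.03 ± 0.65 in the combination (adjusted p = 0.0297), 3.36 ± 0.69 in resistant nodules (adjusted p = 0.002289), 3.21 ± 0.69 under T-DM1 (adjusted p = 0.004449) and 2.40 ± 0.66 under mobocertinib (adjusted p = 0.01553).

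Col8a1 had 6.21, 6.38 and 7.85 CPM in the combination, 11.1, 9.88 and 5.25 in resistant nodules, 12.9, 19 and 9.31 under T-DM1, 6.13, 5.54 and 5.19 under mobocertinib, and 17.2 and 9.29 in vehicle. The combination and mobocertinib libraries lay below both vehicle libraries. It fell under mobocertinib (-1.24 ± 0.40, adjusted p = 0.03186), and gave -0.96 ± 0.40 in the combination (adjusted p = 0.08065), -0.60 ± 0.40 in resistant nodules (adjusted p = 0.2472) and 0.06 ± 0.41 under T-DM1 (adjusted p = 0.9248). From log2(TPM + 1) the mobocertinib value was 0.26, with the median of all genes at 1.11. Col10a1, the third of the class and a chain of growth plate cartilage, stayed at or below 0.42 TPM.

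Among transmembrane collagens, Col13a1, found at cell adhesions, had 9.42, 3.03 and 6.37 CPM in the combination, 22.8, 17.1 and 3.86 in resistant nodules, 4.71, 5.42 and 16.6 under T-DM1, 3.19, 6.35 and 19.4 under mobocertinib, and 1.62 and 0.07 in vehicle. All 12 lay above vehicle. It was called in resistant nodules (4.07 ± 1.22, adjusted p = 0.01837), under T-DM1 (3.35 ± 1.18, adjusted p = 0.04607) and under mobocertinib (3.47 ± 1.19, adjusted p = 0.03975), and gave 2.85 ± 1.16 in the combination (adjusted p = 0.07255). Its messenger RNA, at 3162 nucleotides, is among the shorter of the family. Col23a1, a membrane collagen shed from cells, was called in resistant nodules (2.15 ± 0.78, adjusted p = 0.04206) and under mobocertinib (3.18 ± 0.82, adjusted p = 0.01102), where its libraries held 13.2, 25.1 and 90.6 CPM, against 4.74 and 4.75 in vehicle.

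Col17a1, the membrane collagen of hemidesmosomes in basal epithelial cells, was high in single libraries. It had 6.87, 0.21 and 7.17 TPM in the combination, 0.70, 0.14 and 0.09 in resistant nodules, 5.13, 1.08 and 7.67 under T-DM1, 0.03, 2.27 and 0.22 under mobocertinib, and 0.07 and 0.08 in vehicle. The 4 libraries over 5 TPM were those in which 5 basal epithelial markers, such as Krt5 and Trp63, summed to 127, 206, 269 and 348 TPM, while the other 10 had 3.92 to 57.2 TPM of them. The part of such cells in the Col17a1 value was not tested. On TMM-scaled counts its changes were 4.05 ± 1.72 (adjusted p = 0.08557), 0.05 ± 1.52 (adjusted p = 0.9846), 4.11 ± 1.73 (adjusted p = 0.08578) and 1.40 ± 1.55 (adjusted p = 0.5064), and the value in resistant nodules was negative under other scalings. Col25a1, a collagen first described in brain, showed 1.20, 1.14 and 1.45 TPM in the combination, 0.09, 0.06 and 0.04 in resistant nodules, 2.28, 0.22 and 1.63 under T-DM1, 0.90, 0.41 and 0.09 under mobocertinib, and 0.02 and 0.06 in vehicle. It was not called by edgeR, and DESeq2 called it higher in the combination and under T-DM1. In the class of others, Col28a1, a collagen known from peripheral nerve, was called in resistant nodules (3.9 ± 1.26, adjusted p = 0.02598) at 0.30 to 1.80 TPM, against 0.04 and 0 TPM in vehicle.

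With the offset for length and GC content, the picture against vehicle was smaller and mixed in sign. The median of the 38 collagens was 0.12 in the combination, 0.27 in resistant nodules, 0.36 under T-DM1 and -0.004 under mobocertinib, beside -0.09, -0.07, -0.13 and -0.07 over all 14907 genes tested in this way. Higher and lower calls numbered 1 and 3 in the combination, where 9.55% and 15% of all genes were called. They numbered 3 and 4 in resistant nodules (11.6% and 18.3%), 2 and 2 under T-DM1 (7.14% and 16%) and 1 and 5 under mobocertinib (9.04% and 14.7%). Of the 34 values called with TMM factors, 8 kept their call.

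Those 8 values were Col4a6 in all 4 comparisons, Col8a2 in resistant nodules (2.55, adjusted p = 0.01115) and under T-DM1 (2.32, adjusted p = 0.02174), Col13a1 in resistant nodules (3.85, adjusted p = 0.02872), and Col8a1, lower under mobocertinib (-1.97, adjusted p = 0.003843). Col8a1 was also called lower in the combination (-1.73, adjusted p = 0.006396) and in resistant nodules (-1.66, adjusted p = 0.005669) with this offset. Col12a1, a fibril-associated chain of stressed tissue, was lower in resistant nodules (-1.59, adjusted p = 0.03201) and under mobocertinib (-1.53, adjusted p = 0.04456). Col7a1 was lower in the same groups (-1.53, adjusted p = 0.04158 and 0.04941). Col20a1, a little-studied fibril-associated chain, was lower in resistant nodules (-2.42, adjusted p = 0.02374) and under T-DM1 (-2.83, adjusted p = 0.01588), and Col11a2 was lower under T-DM1 (-2.73, adjusted p = 0.04578). In this fit no chain of collagens I, III or V was called in any of the 4 comparisons.

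**Figure D5:**
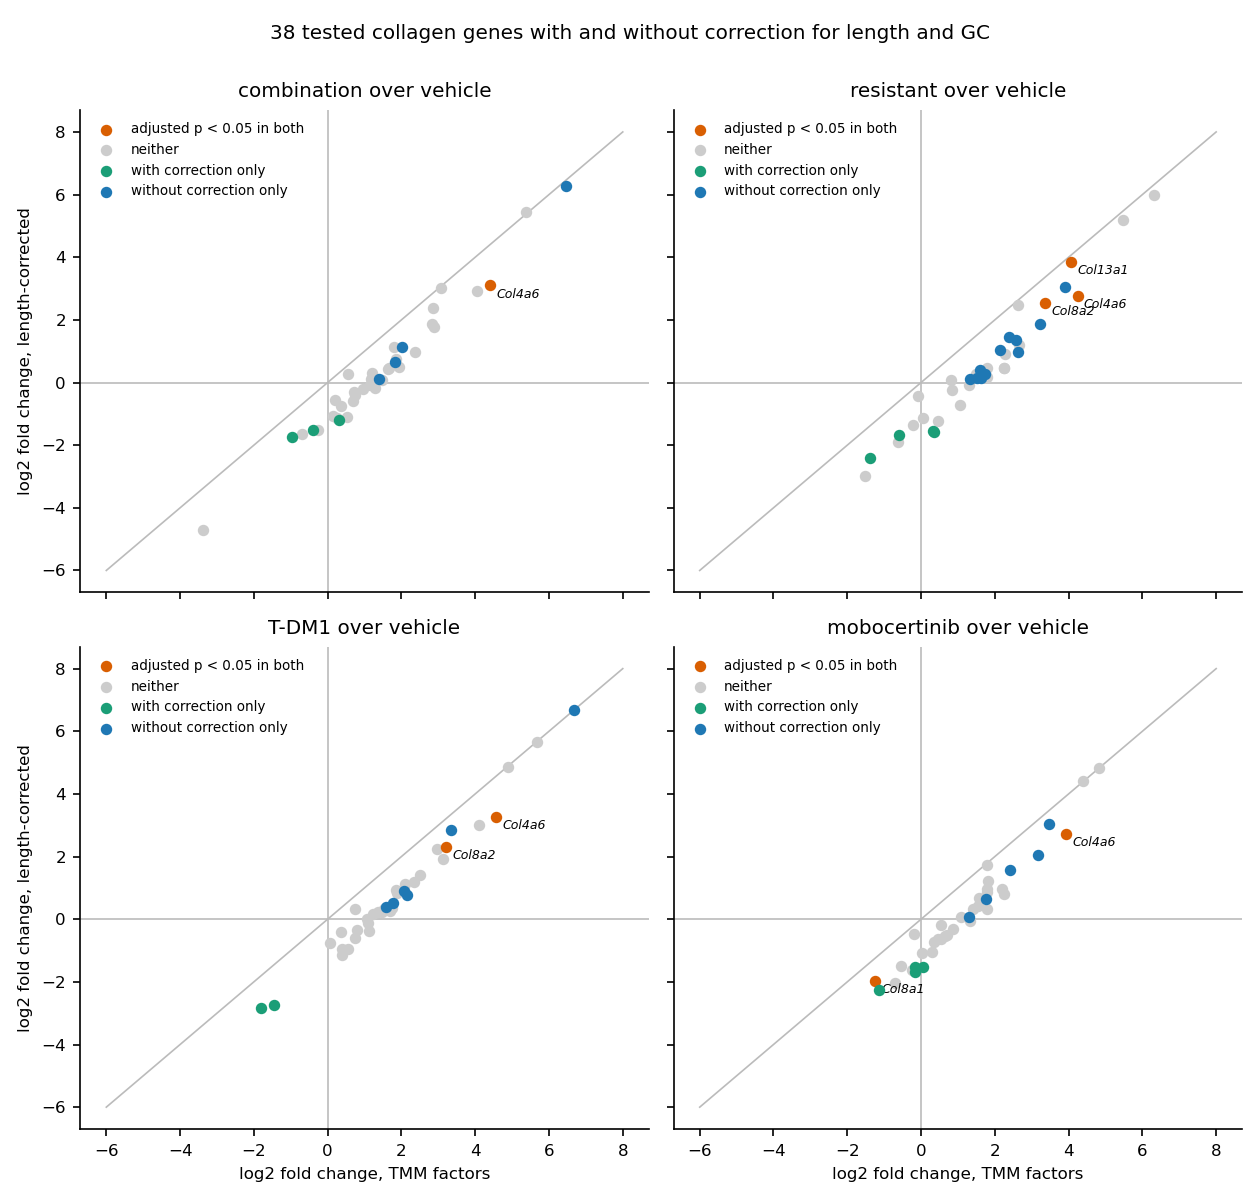
Log2 fold change against vehicle of the 38 tested collagens with TMM factors (x axis) and with correction for length and GC content (y axis), 1 panel per group; colors give the calls at an adjusted p below 0.05, and genes called in both are named. Most points lie below the line of equal values, and Col4a6 is called in both fits in all 4 panels.

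Outside vehicle, where long messenger RNAs were held more evenly, no collagen passed the edgeR test in the 4 pairs of groups compared, which did not include resistant nodules against the combination or T-DM1. In the combination against mobocertinib 0 of 38 were called (0% of all genes), and 1 had an unadjusted p below 0.05, Col12a1 (1.46% of all genes). In the combination against T-DM1 0 were called (0%), and Col8a1, Col18a1 and Col8a2 had an unadjusted p below 0.05 (5.1%). In resistant against mobocertinib nodules 0 were called (0.00558%), and 9 had an unadjusted p below 0.05 (7.77%). In T-DM1 against mobocertinib 0 were called (0.0279%), and 5 had an unadjusted p below 0.05 (9.56%). The F-test of any difference among the 4 groups called 0 collagens (0.0279% of all genes) and gave 9 at an unadjusted p below 0.05 (9.21%). The limma-voom fit and limma-trend on TPM also called 0 in these comparisons. DESeq2 was fitted for the 4 pairs only. It called 0 except in T-DM1 against mobocertinib, where it called 2 collagens and 2.39% of all genes.

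Those 2 were Col18a1 and Col8a1, both higher under T-DM1. Col18a1 had 105, 431 and 139 CPM under T-DM1, against 53.0, 73.0 and 48.6 CPM under mobocertinib. The groups did not overlap, and the log2 fold change was 1.95 ± 0.48 (edgeR adjusted p = 0.2009, DESeq2 adjusted p = 0.005811). Without T-DM1 2 it was 1.07 (edgeR adjusted p = 0.286). Col8a1 had 12.9, 19 and 9.31 CPM under T-DM1, against 6.13, 5.54 and 5.19 CPM under mobocertinib. These groups did not overlap either, with a log2 fold change of 1.29 ± 0.37 (edgeR adjusted p = 0.2453, DESeq2 adjusted p = 0.0254). Over all 38 collagens, 11 did not overlap and were higher under T-DM1 and 1 was lower, where 9.64% and 9.32% of all genes did so (19% together), and the median was 0.72, beside 0.01 for all genes.

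In resistant against mobocertinib nodules the collagen median was 0.62, beside 0.07 for all genes and 0.35 for messenger RNAs over 5 kb. With length correction the collagen median was 0.43. With TMM factors but without resistant 1 it was -0.09. Col1a1 gave 1.68 ± 0.76 (edgeR adjusted p = 0.6223), and -0.47 without that library. Col3a1 gave 1.76 ± 0.75 and Col5a1 1.32 ± 0.57 (adjusted p = 0.6223 each), and both turned negative without it, at -0.13 and -0.11. Col6a3 had 65.7, 36.9 and 22.5 CPM in resistant nodules, against 13.4, 18.3 and 21.8 CPM under mobocertinib, without overlap, and gave 1.22 ± 0.36 (adjusted p = 0.6223). It was 1 of 6 collagens whose resistant libraries all lay above mobocertinib, with 0 below, where 4.33% and 5.75% of all genes did so (10.1% together). Among 3080 messenger RNAs over 5 kb, 279 lay above and 34 below in this way. In the combination the medians were 0.22 against mobocertinib and -0.41 against T-DM1. The combination and mobocertinib libraries did not overlap for 1 collagen, Col8a1, which was higher in the combination (3.49% and 3.21% of all genes higher and lower, 6.7% together), and those of the combination and T-DM1 for 3, which were lower in the combination (8.41% and 7.81%, 16.2% together). These comparisons share the mobocertinib or T-DM1 libraries with each other.

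The enzymes that fold, cut and cross-link collagen showed calls in both directions against vehicle. Of 30 such genes, 4 were higher and 6 lower in the combination, 8 and 5 in resistant nodules, 4 and 4 under T-DM1, and 4 and 6 under mobocertinib, beside the shares of all genes given above. Mia3, the TANGO1 protein that loads collagen into transport carriers, rose by 1.93 ± 0.26, 2.02 ± 0.26, 1.48 ± 0.25 and 2.01 ± 0.26 in the combination, resistant, T-DM1 and mobocertinib groups (adjusted p = 0.0002851, 0.0001325, 0.001283 and 0.0003414). P3h2, a prolyl 3-hydroxylase that acts on collagen IV, rose by 1.70 ± 0.33, 1.87 ± 0.34, 2.02 ± 0.34 and 1.66 ± 0.33 (adjusted p = 0.002371, 0.001007, 0.001125 and 0.002968).

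Other members of that list were lower. Ppib, cyclophilin B of the prolyl 3-hydroxylase complex, gave -1.46 ± 0.23, -1.61 ± 0.23, -1.37 ± 0.23 and -1.71 ± 0.23 (adjusted p = 0.0006118, 0.000219, 0.001038 and 0.0003697). Bmp1, the C-propeptide protease, gave -2.45 ± 0.53, -2.37 ± 0.53, -2.13 ± 0.52 and -2.56 ± 0.53 (adjusted p = 0.004033, 0.003694, 0.009437 and 0.00347). P4ha1, a catalytic subunit of prolyl 4-hydroxylase, gave -1.79 ± 0.36, -1.40 ± 0.35, -1.08 ± 0.35 and -1.65 ± 0.36 (adjusted p = 0.002524, 0.007687, 0.03494 and 0.004391). With length correction Mia3 and P3h2 remained called higher and P4ha1, Bmp1 and Colgalt1, a collagen galactosyltransferase, lower in all 4 comparisons, while Ppib was called under mobocertinib and in no other group. In resistant nodules the cross-linking enzymes Lox, Loxl1 and Loxl2 were called higher with TMM factors (2.17 ± 0.74, 1.95 ± 0.68 and 2.02 ± 0.74, adjusted p = 0.03293, 0.03711 and 0.04406) and not with length correction.

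Of 15 genes of collagen breakdown, 2 were higher and 3 lower in the combination, 2 and 4 in resistant nodules, 1 and 2 under T-DM1, and 2 and 3 under mobocertinib, where 16.7% to 22% of all genes were higher and 14.9% to 19% lower over the 4 comparisons. With length correction the counts were 1 and 1, 1 and 4, 1 and 2, and 0 and 3. Mmp14, a membrane-bound collagenase, rose by 1.87 ± 0.48, 1.88 ± 0.48, 2.19 ± 0.48 and 1.60 ± 0.47 (adjusted p = 0.009648, 0.007551, 0.00523 and 0.02087). Ctsk, the collagen-cutting cathepsin K, gave -2.16 ± 0.62, -3.98 ± 0.66, -2.70 ± 0.63 and -2.32 ± 0.63 (adjusted p = 0.0182, 0.0005796, 0.0072 and 0.01391). Mmp12, the macrophage elastase, gave -2.26 ± 0.74, -4.66 ± 0.80, -2.77 ± 0.75 and -2.93 ± 0.75 (adjusted p = 0.03144, 0.0007511, 0.01462 and 0.0109). With length correction Mmp12 stayed called lower in all 4 comparisons, Ctsk in resistant nodules and under T-DM1, and Mmp14 stayed called higher in all but mobocertinib. Markers of macrophages and monocytes summed to 4392 to 7060 TPM in the combination, 1255 to 18437 in resistant nodules, 2762 to 13004 under T-DM1, 2978 to 11626 under mobocertinib, and 10961 and 7584 in vehicle, and their part in these values was not tested.

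Among 9 collagen receptors, 3 were higher and 1 lower in each comparison with vehicle, where 16.7% to 22% of all genes and 40.6% to 56.2% of messenger RNAs over 5 kb were higher. Ddr2, a receptor kinase for fibrillar collagen, rose by 2.50 ± 0.61, 3.92 ± 0.66, 1.98 ± 0.60 and 2.71 ± 0.62 (adjusted p = 0.007969, 0.0006463, 0.02454 and 0.00586). Lair1, an inhibitory collagen receptor of leukocytes, gave -1.90 ± 0.60, -2.25 ± 0.60, -1.82 ± 0.60 and -2.07 ± 0.60 (adjusted p = 0.02665, 0.01023, 0.03494 and 0.01953). With length correction Lair1 stayed called in all 4 comparisons and Ddr2 in all but T-DM1. Of 15 partners of collagen IV in the basement membrane, 6 were higher in the combination and 4 in each of the other groups, with 0 lower, beside the same shares of all genes and of long messenger RNAs. Lamc1, the laminin gamma 1 chain, rose by 1.83 ± 0.27, 2.04 ± 0.28, 2.09 ± 0.28 and 1.68 ± 0.27 (adjusted p = 0.0005038, 0.0001846, 0.0003491 and 0.0008965). With length correction the partners gave 0 higher and 2 lower, 1 and 2, 2 and 1, and 0 and 2 in the 4 groups, and Hspg2, the perlecan gene, was lower in each. In none of the comparisons outside vehicle was a gene of these 4 lists called.

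Most endothelial markers were also lower in vehicle. The 12 markers, such as Cdh5 and Pecam1, summed to 445 to 604 TPM in the combination, 493 to 737 in resistant nodules, 317 to 653 under T-DM1, 456 to 815 under mobocertinib, and 128 and 122 in vehicle, and 9 of 12 were called higher in each comparison with vehicle, with 1 lower in resistant nodules. The share called higher in these comparisons was 16.7% to 22% of all genes and 40.6% to 56.2% of messenger RNAs over 5 kb. With length correction 5, 8, 5 and 6 of the 12 were called higher, beside 9.55%, 11.6%, 7.14% and 9.04% of all genes. The 6 mesothelial markers summed to 1604 to 2429 TPM in the combination, 195 to 1182 in resistant nodules, 1016 to 4051 under T-DM1, 726 to 1541 under mobocertinib, and 212 and 253 in vehicle. Of these 6, 1, 0, 3 and 1 were called higher on TMM-scaled counts in the same group order. The 7 alveolar type 1 markers summed to 1375 and 1103 TPM in vehicle. In the same 4 groups they summed to 2496 to 3625, 1114 to 2355, 2721 to 4134 and 2147 to 3374 TPM. On TMM-scaled counts 0 of these 7 were called higher in any comparison with vehicle. Their median log2 fold changes were 0.02, -0.94, -0.29 and -0.31. Aqp5 was called lower in resistant nodules, where 19% of all genes were lower. The part of endothelial, mesothelial and alveolar cells in the collagen levels was not tested.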

How the data were processed

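RNA libraries were prepared with standard Illumina protocols, per the labels. The authors deposited a table of whole-number read counts per gene and a table of TPM values; STAR, RSEM and mm10 are named in the submitters' processing notes, and versions, annotation and strand are not given there. All 14 columns of each table matched a sample by name, with 0 unmatched. The labels do not say that libraries come from separate animals, so a p-value here reflects library-to-library spread, which may be technical. Replicate numbers follow accession order. All 13 within-group pairs differed beyond sampling noise (lowest chi-square per degree of freedom 87.9).

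Counts were fitted with edgeR 4.0.16 in R 4.3.3 (quasi-likelihood, TMM factors, filterByExpr, robust, all 14 libraries, 9 residual degrees of freedom) and adjusted by Benjamini-Hochberg over 17933 genes, with a threshold of 0.05. In 8 pairwise comparisons and 1 F-test, the fold change is the first named group over the second, on the log2 scale. The length correction used spline offsets (4 degrees of freedom each) for length and GC content of the longest protein-coding transcript per symbol in GENCODE M21, matched for 97.9% of tested genes. Alternatives were upper-quartile and RLE factors, no filter beyond 1 count, a 1.5-fold threshold, DESeq2 1.42.0, limma 3.58.1 (voom, and trend on log2 of TPM plus 1 or 0.1), the compared groups only, and each library left out. The procedure was tested on simulated data.

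Named genes were, per comparison, up to 4 called members of each class by smallest p, a panel (Col1a1, Col1a2, Col3a1, Col4a1, Col4a2, Col4a3, Col6a3, Col15a1, Col18a1 and Col17a1) whatever its p, and up to 3 called genes of each pathway list. The members and lists were chosen with earlier results of these data known.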

Additional observations from a re-analysis of the deposited data

How the results depend on the processing

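Collagen calls against vehicle depended on the processing. The combination had 5 calls, and 14 with DESeq2, 16 and 24 from log2(TPM + 1) and log2(TPM + 0.1), 3 with the 1.5-fold threshold, 13 with the compared groups only, and 1 to 7 with 1 library left out (3 without combination 1, 1 without vehicle 2). Resistant nodules had 14, and 6 with limma-voom, 7 with length correction, 23 from log2(TPM + 0.1), 8 with the 1.5-fold threshold, 5 with the compared groups only, and 2 to 19 with 1 library left out (9 without resistant 1, 2 without vehicle 2). T-DM1 had 8, and 18 with DESeq2, 5 with limma-voom, 4 with length correction, 22 and 26 from the TPM scales, 5 with the 1.5-fold threshold, and 2 to 8 with 1 library left out (2 without vehicle 2). Mobocertinib had 7, and 2 with limma-voom, 14 and 15 from the TPM scales, 4 with the 1.5-fold threshold, 11 with the compared groups only, and 2 to 6 with 1 library left out (2 without vehicle 2). T-DM1 against mobocertinib had 0, and 2 with DESeq2. The cause of these differences was not tested.

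Some log2 fold changes against vehicle changed sign. With length correction the combination gave -0.76 for Col3a1, -0.064 for Col4a1 and -1.20 for Col6a3, resistant nodules -0.25 for Col15a1, -1.14 for Col17a1 and -0.72 for Col6a3, T-DM1 -0.34 for Col18a1 and -0.96 for Col6a3, and mobocertinib -1.06 for Col3a1 and -0.32 for Col4a1. On log2(TPM + 1) and log2(TPM + 0.1), Col18a1 gave 1.31 and 1.39 in the combination, 1.56 and 1.65 in resistant nodules, and 0.56 and 0.61 under mobocertinib, where Col6a3 gave 0.99 and 1.28 and Col8a1 0.26 and 0.49. Upper-quartile factors gave -0.081 for Col17a1 in resistant nodules and -0.094 for Col3a1 under mobocertinib, limma-voom -0.34 and -0.035 for the same values, and the fit with no filter beyond 1 count 0.0093 for Col6a3 under mobocertinib. With 1 library left out, Col3a1 ran over -0.16 to 0.63 in the combination (lowest without combination 1), -0.023 to 2.26 in resistant nodules (lowest without resistant 1) and -0.12 to 0.28 under mobocertinib (lowest without mobocertinib 3). Col17a1 ran over -1.18 to 0.60 in resistant nodules (lowest without resistant 1, and -0.27 without vehicle 1) and -1.23 to 1.95 under mobocertinib (lowest without mobocertinib 2). Col18a1 ran over -0.44 to 0.10 in resistant nodules (highest without vehicle 1) and -0.075 to 1.21 under T-DM1 (lowest without T-DM1 2), and Col6a3 over -0.27 to 0.059 under mobocertinib (highest without vehicle 1). In resistant against mobocertinib nodules, Col1a1, Col3a1 and Col5a1 ran over -0.47 to 2.17, -0.13 to 2.23 and -0.11 to 1.73, each lowest without resistant 1.

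No paired analysis was possible because the replicate numbers follow accession order and the labels pair no libraries. With 2 vehicle libraries of low long-mRNA content, differences against vehicle rest on few samples, and a collagen that missed the threshold is not shown to be unchanged.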
